A study of Rattus norvegicus with 3 samples.

Results

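Cadherins and the non-clustered protocadherins were followed through the cell classes of the embryonic rat cerebral cortex. Members were taken by symbol, as every gene named Cdh or Pcdh followed by a number alone, with or without a closing x. The rule found 35 genes of the 29772 listed for the series: 5 type I classical cadherins, 13 type II classical cadherins, the GPI-anchored Cdh13, 4 delta-1 and 5 delta-2 protocadherins, 3 other protocadherins and 4 other cadherins. Cortical cells were freshly dissociated from embryos of wild-type rats (Rattus norvegicus) and sequenced in droplets, cell by cell, in 3 libraries labelled E14, E16 and E18, with 1 library per label. Papain dissociation, a 10x Genomics 3′ kit of version 3.1 and a NovaSeq 6000 are named in the labels. The labels give no treatment and no number of embryos per library. Their protocol text also describes oligonucleotide labelling of cultured cells and sorting of human cells, which does not match primary rat cortex, so the steps these cells passed through are known only in part.

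Cadherins are calcium-dependent adhesion proteins whose extracellular repeats bind cadherins on neighbouring cells. Classical cadherins are tied to actin by catenins, and N-cadherin (Cdh2) holds together the apical junctions of radial glia, which line the ventricle and divide to make neurons. Non-clustered protocadherins adhere more weakly, lack the classical catenin-binding tail, and are known for patterned expression in subsets of neurons, where several act in axon growth and synapse formation.

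The libraries held 62740631, 80974234 and 73727823 unique molecular identifiers (UMIs) in label order, and 4286, 4977 and 5431 cells remained after filtering and doublet removal. With 1 library per label there is no replicate check, so no test was made. Levels are UMIs per 1000000 UMIs of a class (CPM), with exact Poisson 95% intervals for counting error only. The libraries do not follow their labels: in radial glia the early stage gene Hmga2 stood at 11.7, 223.2 and 21.7 CPM in label order, and the late gene Aldoc at 733.0, 16.9 and 240.7 CPM. Embryonic forms made up 2.57%, 67.4% and 22.01% of globin UMIs. Values below are therefore compared between libraries as labelled and not between known ages. Cell classes were rebuilt here from 27 clusters, 26 of which could be named, and many clusters came mostly from 1 library. Radial glia labelled E16 lay in clusters led by Hmga2 and cell-cycle genes, and those labelled E14 and E18 in clusters led by Aldoc and Mfge8 or by mitotic genes. The libraries shared 12 to 17 barcodes per pair, of which 7 or 8 were kept.

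Of the 35 members, 23 reached 10 CPM in at least 1 class of at least 20 cells, and 16 reached 50 CPM. The map of levels by class shows that Cdh2 was spread over nearly all classes, while most other members were high in a few. All 4 delta-1 and all 5 delta-2 protocadherins reached 10 CPM, as did 3 of 5 type I and 8 of 13 type II cadherins. None of the 4 other cadherins did. Summed over all members, the level in excitatory neurons was 863.7, 862.7 and 875.2 CPM in label order. Radial glia held 628.5, 549.1 and 529.0 CPM, and intermediate progenitors, the cells between radial glia and neurons, 453.2, 491.3 and 498.0 CPM. Neurons thus had the highest sum of the 3 classes in every library. Red blood cells, which should lack these genes, held 10.0 CPM in 124 cells labelled E16, 49.6 CPM in 9 labelled E18 and 553.8 CPM in 1 labelled E14.

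**Figure D1:**
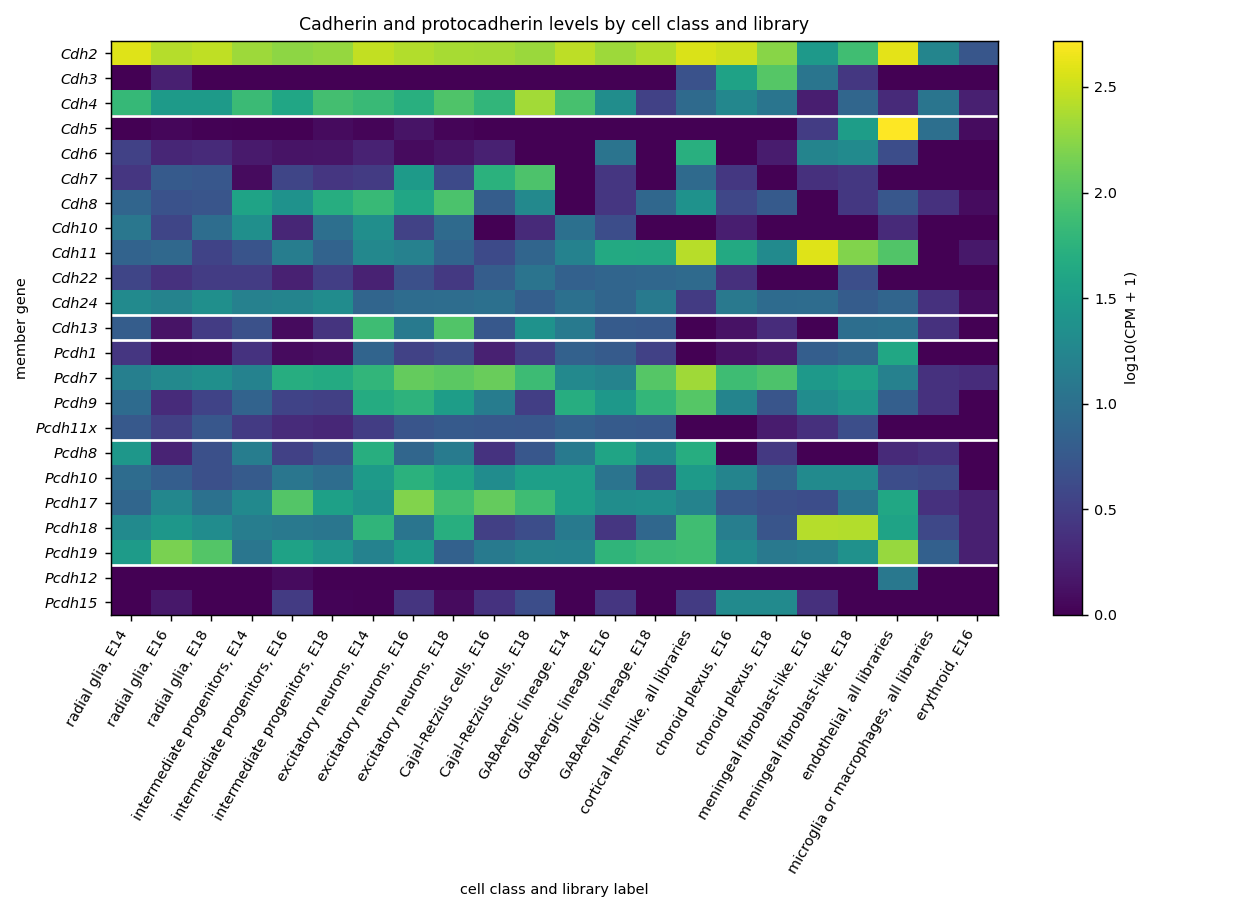
Level of the 23 members that reached 10 CPM (rows, grouped by subfamily between white lines) in each cell class and library (columns), as log10 of CPM plus 1. Classes with fewer than 20 cells in some library are pooled where marked all libraries. Cdh2 is bright across neural classes, and Cdh5 is bright in endothelial cells, where it stood at 522.0 CPM.

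Counted in single cells thinned to 2000 UMIs, the mean number of different members with a UMI was 1.40, 1.33 and 1.45 per excitatory neuron in label order. It was 0.990, 0.881 and 0.858 per radial glial cell and 0.748, 0.844 and 0.825 per intermediate progenitor. Red blood cells labelled E16 gave 0.016. Without thinning the neurons gave 4.51, 3.84 and 4.16 members per cell. At this depth a typical neuron showed 1 to 2 members, and 21.8%, 24.7% and 20.7% of neurons showed none.

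Of these members, 5 were at least 2-fold higher in excitatory neurons than in radial glia in all 3 libraries: Cdh8, Pcdh7, Pcdh9, Pcdh10 and Pcdh17. They are 5 of the 10 members with a mean of at least 10 CPM over both classes in every library, and 8.82% of all such genes did the same. The sequences upstream of 3 of them, with 250 bases before the annotated start, are shown as examples of members that move together between these classes. All 5 have an entry in the promoter table. Cdh8 and Pcdh17 were chosen because they were also at least 2-fold higher in intermediate progenitors in every library (for Pcdh17 labelled E14 not under 3 of the alternatives, given below), and Pcdh7 because it holds the only match described here. They come from RefSeq (GRCr8, a build other than the one named for the counts), and 24 of the 35 members have an entry there. Capitals mark a match to CAGATG or its reverse CATCTG, an E-box of the kind bound by proneural factors. A second E-box, CACCTG or CAGGTG, of the kind bound by Zeb and Snail repressors, was searched too. Sequences are 5′ to 3′ on the strand of the gene.
Cdh8 (GRCr8 chr19:5500216-5500465, plus strand): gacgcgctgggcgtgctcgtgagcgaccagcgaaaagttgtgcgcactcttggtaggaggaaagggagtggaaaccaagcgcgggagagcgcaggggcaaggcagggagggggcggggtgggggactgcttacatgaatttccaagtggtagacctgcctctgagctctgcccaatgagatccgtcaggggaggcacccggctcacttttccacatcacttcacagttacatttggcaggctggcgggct
Pcdh7 (GRCr8 chr14:57113523-57113772, minus strand): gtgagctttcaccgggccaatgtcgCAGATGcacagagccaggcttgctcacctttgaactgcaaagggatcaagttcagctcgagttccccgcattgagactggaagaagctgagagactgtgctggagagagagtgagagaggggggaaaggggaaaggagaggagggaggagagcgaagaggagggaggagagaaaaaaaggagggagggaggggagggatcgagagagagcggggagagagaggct
Pcdh17 (GRCr8 chr15:66632892-66633141, plus strand): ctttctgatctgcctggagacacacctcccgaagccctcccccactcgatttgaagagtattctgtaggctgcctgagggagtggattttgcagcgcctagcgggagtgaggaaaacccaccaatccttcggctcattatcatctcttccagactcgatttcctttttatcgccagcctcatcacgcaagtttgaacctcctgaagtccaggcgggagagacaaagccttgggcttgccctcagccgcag
One match to CAGATG lies in the Pcdh7 sequence, near its 5′ end, and the sequences of the other 4 members hold none. None of the 5 holds CACCTG on either strand. Over all members with an entry, CAGATG or CATCTG was found in 3 of 24 sequences (Cdh23, Cdh24 and Pcdh7), against 4673 of all 33469 promoters (13.96%). CACCTG or CAGGTG was found in 1 of 24 (Pcdh15), against 5323 of 33469 (15.9%). G and C make up 60.8% of the Cdh8 sequence, 57.2% of that of Pcdh7 and 54.4% of that of Pcdh17. A match describes letters only, and the files hold no binding data.

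The first comparison asked which members differ between excitatory neurons and the radial glia they descend from. A ratio was counted when it reached 2-fold on the scale of log2(CPM + 1) among genes with a mean of at least 10 CPM over the pair of classes. In the library labelled E14, 14 members passed that minimum, and 8 were higher and 1 lower in neurons. Over all genes past the minimum 12.8% were higher and 18.8% lower. In the library labelled E16, 6 of 12 members were higher and 2 lower, against 14.1% and 16.2% of all genes. In the library labelled E18, 8 of 11 were higher and 2 lower, against 13.6% and 16.6%. The median log2 ratio of these members was 1.48, 1.64 and 2.24 in label order, against -0.19, -0.06 and -0.09 over all genes. A member high in only 1 class passes the minimum through that class, so these counts describe the members that could be compared and not all 35. Genes of at least 50 CPM had a median ratio of -0.16 in the library labelled E14, which is the shift against which its ratios stand.

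**Figure D2:**
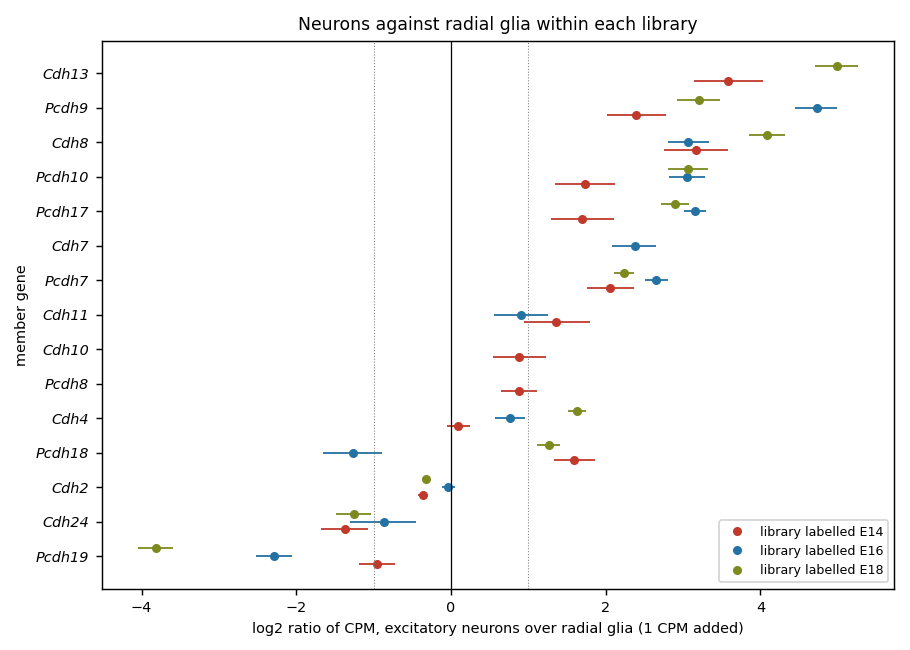
Log2 ratio of CPM (1 CPM added) of excitatory neurons over radial glia for each member whose mean over both classes was at least 10 CPM. Points are libraries, lines are exact 95% counting intervals, and dotted lines mark 2-fold. Cdh8, Pcdh7, Pcdh9, Pcdh10 and Pcdh17 lie to the right of 2-fold in all 3 libraries, and Pcdh18 lies on both sides of 0.

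Cdh8, a type II cadherin known from cortical areas and their thalamic connections, stood in radial glia at 6.64, 3.87 and 4.24 CPM in label order. In intermediate progenitors it stood at 36.8, 23.2 and 48.4 CPM, and in neurons at 67.4, 39.9 and 87.8 CPM. In class sums Cdh8 was thus higher in each step along the lineage in every library, with counting intervals that do not overlap. Single neuron clusters did not all keep this order. That labelled E18 and led by Dact1, described below, was under the intermediate progenitor level of its library. The log2 ratio of neurons over radial glia was 3.16 (2.76 to 3.58), 3.07 (2.80 to 3.33) and 4.08 (3.85 to 4.32). A Cdh8 UMI was found in 13.0%, 7.43% and 16.9% of neurons thinned to 2000 UMIs and in 1.01%, 0.724% and 1.09% of radial glia. In red blood cells labelled E16 the share was 0.806%, 1 of 124 cells, with an exact interval from 0.0204% to 4.41%, so the radial glial shares were not distinguishable from that of these cells at this depth. Unthinned shares were 42.5%, 23.8% and 46.9% of neurons at median depths of 11048, 8579 and 9027 UMIs.

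Cdh13 (T-cadherin), which is held by a lipid anchor and has no cytoplasmic tail, differed most in the libraries labelled E14 and E18. It was at 5.28, 0.398 and 2.04 CPM in radial glia and at 3.74, 0.195 and 1.58 CPM in intermediate progenitors. Neurons held 74.2, 12.001 and 95.6 CPM. Its log2 ratio of neurons over radial glia was 3.58 (3.14 to 4.04) in the library labelled E14 and 4.99 (4.71 to 5.27) in that labelled E18. In the library labelled E16 the mean of the classes was under 10 CPM, so no ratio was counted. Unlike Cdh8, Cdh13 was no higher in intermediate progenitors than in radial glia in any library. With doublets kept, the neuron over radial glia ratios of Cdh13 were 2.25 and 3.27, and those of Cdh8 were 2.26 and 3.32, in the libraries labelled E14 and E18. With 5 CPM added those of Cdh13 were 2.95 and 3.84, and those of Cdh8 labelled E16 and E18 were 2.34 and 3.33. At a Leiden resolution of 0.5 the Cdh8 ratio labelled E18 was 3.40.

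Among delta-1 protocadherins, Pcdh7 and Pcdh9 passed the minimum and were higher in neurons in every library. Pcdh7 was at 13.96, 17.9 and 21.8 CPM in radial glia and at 61.3, 118.0 and 106.9 CPM in neurons. Intermediate progenitors held 14.96, 48.3 and 44.4 CPM of it, close to radial glia in the library labelled E14 and between the other classes elsewhere. Pcdh9 was at 8.001, 1.15 and 2.52 CPM in radial glia, at 6.36, 2.53 and 2.30 CPM in intermediate progenitors and at 46.2, 55.9 and 31.4 CPM in neurons. Its log2 ratio of neurons over radial glia was 2.39, 4.73 and 3.20. The log2 ratio of Pcdh9 in intermediate progenitors over radial glia was -0.29 (-0.88 to 0.29), 0.72 (0.08 to 1.34) and -0.09 (-0.54 to 0.36), so the one labelled E16 was above 0 beyond its counting interval, at levels of under 3 CPM. With 5 CPM added the Pcdh9 ratio was 3.31 labelled E16 and 2.27 labelled E18. Pcdh11x, an X-linked delta-1 protocadherin, was under 5 CPM in all 3 classes, and Pcdh1 was at most 6.52 CPM in them, in neurons labelled E14, and so missed the minimum although its log2 ratios of neurons over radial glia were 1.48, 1.60 and 1.87.

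Among delta-2 protocadherins, Pcdh17, which acts in axon extension and at synapses, stood at 6.98, 16.9 and 9.36 CPM in radial glia. It was at 18.7, 96.7 and 34.4 CPM in intermediate progenitors and at 24.7, 158.7 and 76.2 CPM in neurons. In every library the order was radial glia, intermediate progenitors, neurons, and the library labelled E16 was the highest in each class. Pcdh10, known to link to the actin regulators of the WAVE complex, was at 8.17, 5.55 and 3.64 CPM in radial glia. Neurons held 29.4, 53.5 and 37.8 CPM of Pcdh10, at log2 ratios of 1.73, 3.06 and 3.06, of which the last pair was 2.47 and 2.31 with 5 CPM added. With doublets kept that of the library labelled E18 was 2.45. Intermediate progenitors were lower than neurons, at 5.05, 10.7 and 8.27 CPM.

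Pcdh19, a partner of N-cadherin and an X-linked epilepsy gene in people, ran the other way. Radial glia held 30.3, 146.5 and 96.7 CPM in label order, intermediate progenitors 10.7, 36.2 and 25.6 CPM and neurons 15.1, 29.3 and 5.93 CPM. Radial glia were the highest of these classes in every library. The log2 ratio of neurons over radial glia was -0.96 (-1.19 to -0.72), -2.28 (-2.52 to -2.05) and -3.82 (-4.05 to -3.59), so it missed 2-fold in the library labelled E14. There it was -1.04 in cells of at least 2000 genes and -1.17 as a mean of per-cell CPM, and under both settings Pcdh19 was at least 2-fold lower in every library. With 5 CPM added the ratio labelled E18 was -3.22. Thinned to 2000 UMIs, 7.05%, 22.9% and 15.7% of radial glia and 2.27%, 5.95% and 1.48% of neurons had a Pcdh19 UMI, with 0 of 124 red blood cells labelled E16. A count of 0 in these cells allows a share of up to 2.42% at a limit of 3 counts, or 2.93% by the exact interval, for counting error only.

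Cdh24, a type II cadherin, was also lower in neurons. It stood at 18.9, 15.6 and 21.4 CPM in radial glia, at 14.6, 15.96 and 20.2 CPM in intermediate progenitors and at 6.67, 8.14 and 8.38 CPM in neurons. The log2 ratios of neurons over radial glia were -1.38, -0.86 and -1.26, and that of the library labelled E16 was under 2-fold. With 5 CPM added in place of 1, the ratio of the library labelled E18 was -0.98. No member was at least 2-fold lower in neurons in all 3 libraries, against 11.6% of all genes, although Pcdh19 was under the pair of settings named above. Without the library labelled E16 Cdh24 was lower in both others, and without that labelled E14 Pcdh19 was, 1 member each time.

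Cdh2 was lower in intermediate progenitors than in radial glia and neurons. It was at 382.7, 259.9 and 287.6 CPM in radial glia, 208.5, 181.2 and 194.6 CPM in intermediate progenitors and 296.9, 253.9 and 228.9 CPM in neurons. The log2 ratio of intermediate progenitors over radial glia was -0.87 (-0.98 to -0.77), -0.52 (-0.62 to -0.42) and -0.56 (-0.62 to -0.50). That of neurons over radial glia was -0.37 (-0.43 to -0.30), -0.03 (-0.12 to 0.05) and -0.33 (-0.38 to -0.28). None reached 2-fold, and in all 3 libraries the intermediate progenitors were the lowest of the classes with counting intervals clear of both others. Thinned to 2000 UMIs, 30.0%, 28.4% and 30.8% of intermediate progenitors had a Cdh2 UMI, against 52.4%, 39.4% and 42.8% of radial glia and 42.4%, 38.8% and 36.0% of neurons. Of 124 red blood cells labelled E16, 0 had one when thinned and 8.87% had one at their own median depth of 32391 UMIs.

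Cdh4 (R-cadherin), the type I cadherin closest in sequence to Cdh2, differed in pattern between libraries. Radial glia held 64.5, 29.5 and 29.4 CPM, intermediate progenitors 70.9, 39.3 and 80.4 CPM and neurons 69.0, 50.9 and 93.1 CPM. In the library labelled E14 the counting intervals of the 3 classes overlapped, with a log2 ratio of neurons over radial glia of 0.10 (-0.06 to 0.25). In the library labelled E18 that ratio was 1.63 (1.51 to 1.75), and that of intermediate progenitors over radial glia was 1.42 (1.29 to 1.55).

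Pcdh18, a delta-2 protocadherin, was the only member past the minimum in all 3 libraries whose ratio was past 2-fold in both directions. It was at 19.1, 26.4 and 20.2 CPM in radial glia and at 59.4, 10.4 and 50.1 CPM in neurons, so neurons were higher in the libraries labelled E14 and E18 and lower in that labelled E16. The log2 ratios were 1.59 (1.33 to 1.86), -1.27 (-1.66 to -0.89) and 1.27 (1.12 to 1.41). Intermediate progenitors held 13.3, 11.5 and 10.6 CPM and had counting intervals that overlapped between the libraries. Neurons labelled E16 lay almost wholly in 1 cluster, led by Calb1, Calb2 and Lhx9, so the library and that kind of neuron cannot be told apart here.

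Intermediate progenitors against radial glia gave fewer differences. In label order, 2 of 10, 3 of 9 and 3 of 8 members past the minimum were at least 2-fold higher, against 4.68%, 5.08% and 4.72% of all genes. Those lower were 1, 2 and 1, against 7.68%, 6.18% and 6.1%. Cdh8 and Pcdh17 were higher and Pcdh19 was lower in all 3 libraries, against 2.94% and 3.23% of all genes. Pcdh18 in the library labelled E16 was the other member lower, at -1.13, and was under 2-fold at -0.97 with doublets kept. The Cdh8 ratios were 2.31, 2.31 and 3.24, and 1.39 and 2.30 in the libraries labelled E14 and E18 with doublets kept. That of the library labelled E18 was 4.17 at a Leiden resolution of 0.5 and 2.53 with 5 CPM added, and that of the library labelled E16 was 1.67 with 5 CPM added. The Pcdh17 ratio in the library labelled E14 was 1.30 (0.82 to 1.80), and it was 0.65 with doublets kept, 0.58 in cells of at least 2000 genes and 0.98 with 5 CPM added, under 2-fold in each. In the library labelled E18 it was 1.77, and 1.12 with doublets kept. The 4 clusters of intermediate progenitors differed in level. Cdh8 labelled E18 was at 88.5 CPM (77.5 to 100.7) in the cluster led by Ppp1r17 and Ube2c and at 8.17 CPM (5.59 to 11.5) in that led by Gadd45g and Efl1. Pcdh17 labelled E16 was at 154.2 and 96.7 CPM in the same clusters.

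In radial glia the 14 markers of maturing neurons summed to 569.4, 298.2 and 311.7 CPM by label, against 7679, 7357 and 8066 CPM in neurons. None of the 14 was at 0 in radial glia. The summed level was highest in radial glia labelled E14, and in that library 77.3% of cells were neurons. The part of these markers in the radial glial levels of members that are high in neurons was not tested.

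The second comparison was between libraries within a class. In radial glia the library labelled E16 had 2 of 8 members at least 2-fold higher and 2 lower than that labelled E14, against 1.92% and 6.74% of all genes. The library labelled E18 had 1 of 7 higher and 2 lower than that labelled E14, against 0.732% and 2.78%. Between the libraries labelled E18 and E16, 0 of 7 differed, against 1.77% higher and 0.406% lower, a count near the background. Both comparisons with the library labelled E14 share its cells.

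Pcdh19 was higher in radial glia of the libraries labelled E16 and E18, at log2 ratios of 2.24 (2.03 to 2.45) and 1.64 (1.43 to 1.86) over that labelled E14. Within the cluster led by Mfge8 and Aldoc, which the libraries labelled E14 and E18 shared, Pcdh19 was at 34.3 CPM (28.0 to 41.5) in 238 cells labelled E14 and at 87.1 CPM (81.8 to 92.6) in 930 cells labelled E18. The difference was thus also there within 1 cluster. Pcdh17 was 1.17 (0.76 to 1.59) higher on the log2 scale in radial glia labelled E16 than in those labelled E14. With doublets kept the difference was 0.67, and with 5 CPM added 0.87, both under 2-fold.

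Cdh4 was lower in radial glia of the libraries labelled E16 and E18, at log2 ratios of -1.10 (-1.27 to -0.94) and -1.11 (-1.28 to -0.93). As a mean of per-cell CPM they were -0.83 and -0.91, under 2-fold. Pcdh8, a delta-2 protocadherin known from activity-dependent removal of N-cadherin at synapses, was at 26.7, 0.884 and 3.60 CPM in radial glia. Its log2 ratios against the library labelled E14 were -3.88 (-4.16 to -3.57) and -2.59 (-2.92 to -2.26), or -2.43 and -1.88 with 5 CPM added. Within the cluster led by Mfge8 and Aldoc, Pcdh8 was at 27.4 CPM (21.9 to 33.9) labelled E14 and at 3.73 CPM (2.70 to 5.03) labelled E18. In that cluster Cdh4 was at 66.9 CPM (58.0 to 76.7) and 24.7 CPM (21.9 to 27.7). Pcdh8 was high in the library labelled E14 in all 3 classes, with 13.3, 2.34 and 3.81 CPM in intermediate progenitors and 50.01, 6.92 and 12.6 CPM in neurons. Cdh10, another type II cadherin, shared that order in intermediate progenitors, at 21.7, 0.973 and 8.77 CPM, and in neurons, at 21.2, 2.44 and 7.72 CPM.

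**Figure D3:**
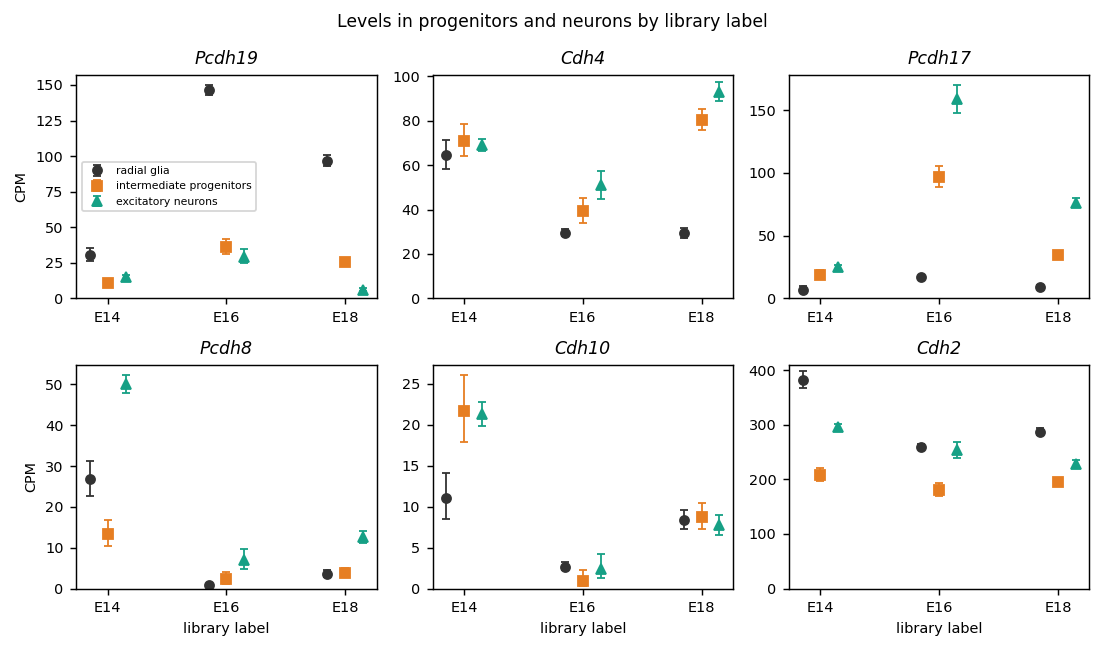
CPM of 6 members in radial glia (circles), intermediate progenitors (squares) and excitatory neurons (triangles) by library label, with exact Poisson 95% intervals. Pcdh19 is highest in radial glia, Pcdh17 highest in neurons labelled E16 at 158.7 CPM, and Pcdh8 and Cdh10 highest in the library labelled E14.

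In intermediate progenitors, the library labelled E16 had 3 of 9 members higher and 1 lower than that labelled E14, against 2.62% and 6.12% of all genes. The library labelled E18 had 2 of 9 higher and 1 lower than that labelled E14, against 0.679% and 1.27%, and 2 of 8 higher and 1 lower than that labelled E16, against 2.12% and 1.01%. Pcdh7 and Pcdh19 were higher, and Cdh10 lower, in both libraries than in the one labelled E14. The class differed in make-up between libraries. Its cluster led by Mfap4 and Eomes held 217 of 467 cells labelled E14, 8 of 465 labelled E16 and 326 of 1266 labelled E18. The part of this make-up in the differences between libraries was not tested. Cdh4 and Cdh8 were the 2 higher labelled E18 than labelled E16, at 1.01 and 1.03, and both were under 2-fold with doublets kept (0.93 and 0.83). At a Leiden resolution of 0.5 that of Cdh8 was 1.87. The log2 ratios of Pcdh7 were 1.63 (1.27 to 1.99) and 1.51 (1.19 to 1.84), and the latter was 2.37 at a coarser Leiden resolution of 0.5. Pcdh19 labelled E18 was 1.19 higher than labelled E14, and under 2-fold at that resolution (0.77), as a mean of per-cell CPM (0.92) and with 5 CPM added (0.97). Cdh10 gave -3.52 (-4.14 to -2.74) and -1.22 (-1.57 to -0.86), or -2.16 and -0.95 with 5 CPM added.

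Excitatory neurons were compared in the same way. Those labelled E16 lay almost wholly in the cluster led by Calb1, Calb2 and Lhx9, and the other neuron clusters also came mostly from 1 library. Library and kind of neuron thus cannot be told apart in these comparisons. The library labelled E16 had 2 of 14 members higher and 4 lower than that labelled E14, against 4.88% and 5.03% of all genes. The library labelled E18 had 1 of 13 higher and 4 lower than that labelled E14, against 1.75% and 1.67%, and 3 of 12 higher and 4 lower than that labelled E16, against 2.91% and 2.32%. Cdh7, a type II cadherin, was at 1.95, 29.5 and 3.11 CPM and stood out in the library labelled E16, with a log2 ratio of 3.37 (3.05 to 3.68) over that labelled E14, or 2.31 with 5 CPM added. Pcdh17 was 2.63 (2.50 to 2.77) higher in the same comparison. Cdh13, Pcdh18, Pcdh8 and Cdh10 were the 4 members lower there, at log2 ratios of -2.53, -2.41, -2.69 and -2.69, and with 5 CPM added that of Cdh10 was -1.82. Cdh11, a type II cadherin first known from bone and mesenchyme, was at 17.8, 14.6 and 6.50 CPM, lowest in neurons labelled E18. Its log2 ratio of E18 over E14 was -1.32, or -0.98 with 5 CPM added, and that over E16 was -1.06, or -0.77. Pcdh19 was also lower on the log2 scale in neurons labelled E18 than in those labelled E14 (-1.22), and the ratio was -0.88 with 5 CPM added.

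Members also differed between neuron clusters. Each cluster came mostly from 1 library, so a difference between clusters of different libraries cannot be told apart from one between libraries. Cdh13 was high in 2 of the 8 clusters of at least 100 cells that are described here. A cluster of 982 cells labelled E14 is not among them, and the highest and lowest clusters named below stand with it counted. Cdh13 stood at 214.4 CPM (206.2 to 222.8) in the cluster labelled E14 led by Sybu, Dync1i1 and Nts. That cluster was called layer 6-like, although its mean log2 fold was 1.05 for both the layer 6-like and the Bcl11b-high deep layer lists. Cdh13 was at 274.0 CPM (261.7 to 286.8) in the cluster labelled E18 led by Dact1, Hs3st4 and Sox5. In the other 6 clusters Cdh13 lay between 2.19 and 23.7 CPM. Cdh11 was also highest in the Sybu cluster, at 34.2 CPM (31.0 to 37.7), and was at 14.5 CPM (11.7 to 17.6) in the Dact1 cluster and 1.59 CPM (0.867 to 2.66) in the cluster labelled E18 led by Pcp4 and Hpca.

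Among the same clusters, Cdh8 was highest in 1 cluster each of the libraries labelled E14 and E18. It was at 205.2 CPM (191.4 to 219.7) in the cluster labelled E14 led by Sstr2 and Negr1 and at 194.5 CPM (182.5 to 207.1) in that labelled E18 led by Neurod1 and Cbln2. Both had Unc5d and Nrn1, which are on the list of newborn neuron markers, among their 10 leading genes. Their subtype markers gave an upper layer-like name to the first and a layer 6-like name to the second. The mean log2 folds of those subtype lists were 0.47 and 0.63, against 1.74 and 1.88 for the lists that named them as neurons. Whether newborn state or layer goes with the Cdh8 level was not tested. Elsewhere Cdh8 ran from 17.3 CPM in the Dact1 cluster to 83.1 CPM in the Pcp4 cluster. Cdh8 and Cdh13 were thus high in different clusters in both libraries, since Cdh13 was at 3.49 CPM in the Sstr2 cluster and 2.19 CPM in the Neurod1 cluster.

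Cdh4 was high in the Sstr2 cluster, at 157.8 CPM, in the Neurod1 cluster, at 144.01 CPM, in the cluster labelled E14 led by Selenom and Pdzrn3, at 159.7 CPM, and in the Pcp4 cluster, at 115.4 CPM. It was at 12.2 to 51.0 CPM in the other 4 clusters. The Sybu cluster, where Cdh13 was high, and the Crym cluster were the lowest. Cdh10 was at 37.4 CPM in the Sstr2 cluster and at 4.07 CPM in the Sybu cluster. Of this pair only the Sstr2 cluster has newborn neuron markers among its 10 leading genes.

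Delta protocadherins split the clusters in other ways. Pcdh17 was at 157.9 CPM (147.0 to 169.4) in the cluster labelled E16 and at 124.5 CPM (110.4 to 139.8) in the cluster labelled E14 led by Crym and Sema3c, against 18.1 to 23.3 CPM in the other 3 described clusters labelled E14. The Crym cluster, 127 cells named for a Bcl11b-high deep layer marker list, also held the most Pcdh8, at 93.8 CPM (81.7 to 107.2), and the least Pcdh7, at 14.03 CPM (9.59 to 19.8). Pcdh7 was highest in the Neurod1 cluster, at 170.5 CPM (159.3 to 182.4). Pcdh9 was highest in the Sybu cluster, at 73.3 CPM (68.5 to 78.3), and Pcdh18 in the Selenom cluster, at 93.7 CPM. Of the 8 members plotted, Cdh2 varied least, from 216.4 to 361.0 CPM.

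**Figure D4:**
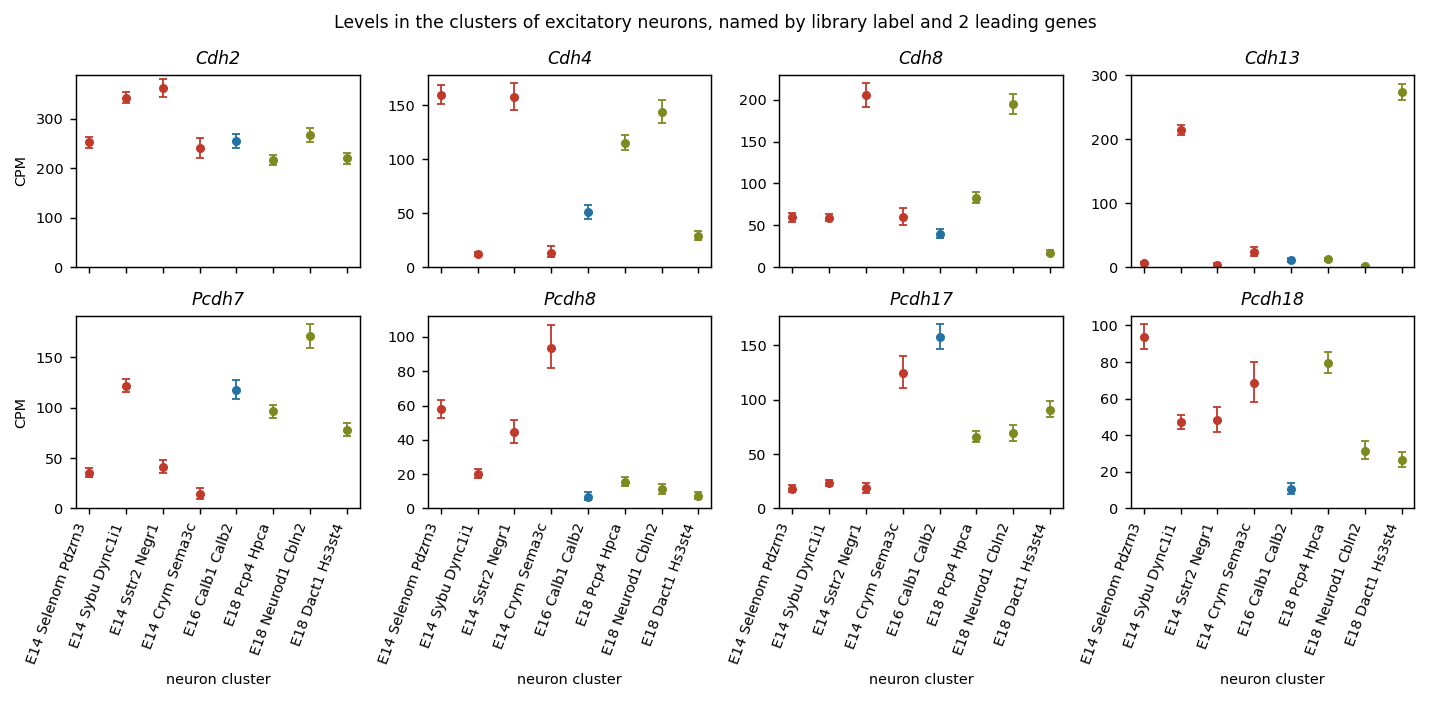
CPM of 8 members in 8 excitatory neuron clusters of at least 100 cells, named by library label and leading genes, with exact Poisson 95% intervals for counting error. Cdh13 is high in 2 clusters, Cdh8 in the Sstr2 and Neurod1 clusters, and Pcdh17 in the cluster labelled E16 and in the Crym cluster labelled E14.

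Cajal-Retzius cells, the early Reln-secreting neurons of the marginal zone, numbered 144 labelled E16 and 68 labelled E18. Cdh7 stood at 53.5 CPM (41.7 to 67.6) and 89.3 CPM (70.8 to 111.1) there. Cdh4 was at 60.4 CPM (47.8 to 75.3) and 221.0 CPM (191.3 to 254.0), so its intervals did not overlap between the libraries. Pcdh7 was at 123.9 and 72.5 CPM and Pcdh17 at 117.0 and 74.8 CPM. Cells of the GABAergic lineage, 55, 74 and 72 in label order, held 84.1, 20.4 and 2.37 CPM of Cdh4, from 28, 12 and 1 UMIs. Their Pcdh7 was at 18.0, 15.3 and 99.6 CPM and their Pcdh19 at 15.02, 59.4 and 71.1 CPM, with intervals from 4.88 to 102 CPM over the 3 libraries for Pcdh19. Cdh11 was at 15.02, 44.1 and 42.7 CPM.

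Some members were high in classes other than radial glia, intermediate progenitors and neurons. Cdh5 (VE-cadherin), the adherens junction cadherin of blood vessels, was at 522.0 CPM (475.7 to 571.7) in 26 endothelial cells, from 465 UMIs, and every one of the 26 cells had a Cdh5 UMI unthinned. In radial glia and neurons Cdh5 was at most 0.407 CPM in any library. Pcdh12, a vascular endothelial protocadherin, gave 10 UMIs in the same cells, 11.2 CPM (5.38 to 20.6), and 1 UMI in all radial glia, intermediate progenitors and neurons together. Endothelial cells also held 405.3 CPM of Cdh2, 197.6 CPM of Pcdh19 (169.5 to 229.0) and 40.4 CPM of Pcdh1 (28.3 to 56.0). The 7 endothelial cells labelled E14 had a median of 58889 UMIs, far above the other classes, and the 26 cells were pooled over libraries.

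Cdh11 and Pcdh18 were the highest members in meningeal fibroblast-like cells. Cdh11 was at 383.9 CPM (352.8 to 417.1) in the library labelled E16 and 159.8 CPM (128.8 to 195.9) in the E18 one. Pcdh18 was at 261.0 and 251.8 CPM in the same cells, so it was below Cdh11 in the library labelled E16 and above it in that labelled E18, while Cdh2 was at 28.8 and 76.4 CPM. Choroid plexus, the ventricular epithelium that secretes cerebrospinal fluid, held Cdh3 (P-cadherin) at 35.9 CPM (29.3 to 43.5) in the library labelled E16 and 98.5 CPM (83.9 to 114.9) labelled E18. Pcdh15, the tip-link protocadherin of hair cells, was at 18.8 CPM there in both libraries and under 2 CPM in radial glia, intermediate progenitors and neurons. A cluster of 30 cortical hem-like cells held 265.8 CPM of Cdh11, 211.5 CPM of Pcdh7, 99.0 CPM of Pcdh9 and 50.5 CPM of Cdh6 (33.0 to 73.9). Cdh6, a type II cadherin, was under 3 CPM in radial glia, intermediate progenitors and neurons. Pooled over libraries, red blood cells and microglia or macrophages were low in Cdh2, at 5.25 and 16.1 CPM.

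The other 12 members did not reach 10 CPM in any class. Cdh16, a kidney cadherin, had 0 UMIs in all kept cells. Cdh1 (E-cadherin), the cadherin of epithelia, had 96 UMIs in all, with 7.33 CPM in microglia or macrophages from 5 UMIs. Cdh12, the most abundant of this group with 398 UMIs, was at 5.17, 0.168 and 1.74 CPM over all kept cells in label order. The group also holds Cdh9, Cdh15, Cdh17, Cdh18, Cdh19, Cdh20, Cdh23, Cdh26 and Pcdh20, with 4 to 270 UMIs each. Of the members just above the minimum, Cdh22 and Pcdh11x were both highest at 13.9 CPM (4.51 to 32.4) in 30 unnamed cells labelled E18, each from 5 UMIs. Cdh22 was at 10.0 CPM in Cajal-Retzius cells labelled E18, from 9 UMIs.

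Several members are neighbours in the genome (RefSeq GRCr8, gene order only). Cdh5 and Cdh11 have no coding gene between them, and Cdh8 lies 2 coding genes beyond Cdh11, yet they led in endothelial cells, meningeal cells and neurons. Pcdh8, Pcdh17, Pcdh20 and Pcdh9 follow each other with 3, 3 and 1 coding genes between. Pcdh17 and Pcdh9 were higher in neurons in all 3 libraries, Pcdh8 was high in the library labelled E14, and Pcdh20 stayed under 10 CPM. Cdh3 and Cdh1, with no coding gene between, differed in level: Cdh3 reached 98.5 CPM in choroid plexus, and Cdh1 was under 10 CPM in every class.

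Partners of the cadherins were described from lists of catenins and junction partners, nectins, other cadherin superfamily genes, clustered protocadherins and regulators. Of 12 catenins and junction partners, 9 passed the minimum for neurons over radial glia in each library. In label order 1, 2 and 1 were higher and 3, 2 and 2 lower, with medians of -0.13, -0.19 and -0.35. Of all genes, as given above, 12.8%, 14.1% and 13.6% were higher and 18.8%, 16.2% and 16.6% lower, and these shares are also the background of the lists that follow. In lists of this size 1 member called is near them. Ctnna1 (alpha-E-catenin), which ties cadherins to actin in progenitors, was at 104.2, 84.6 and 107.9 CPM in radial glia and 15.9, 18.3 and 14.04 CPM in neurons. Ctnna2 (alpha-N-catenin), the neuronal form, ran the opposite way, at 18.6, 6.90 and 14.7 CPM in radial glia and 64.0, 45.4 and 54.1 CPM in neurons. Ctnnb1 (beta-catenin) was at 330.3, 298.2 and 352.0 CPM in radial glia and 108.2, 181.4 and 208.2 CPM in neurons, and its log2 ratios of -1.60, -0.71 and -0.75 passed 2-fold only in the library labelled E14.

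Of 4 nectins, 3 passed, and 0, 1 and 0 were higher and 1 lower in each library. Nectin3 was lower in neurons, at 17.9, 14.2 and 14.4 CPM against 72.9, 106.2 and 100.5 CPM in radial glia. Of 25 other cadherin superfamily genes, 9 passed, and 3, 4 and 5 were higher and 2 lower in each library. Celsr1 and Fat1, which act in planar polarity and apical junctions, were the 2 lower, and Celsr3 and Clstn2, known from axons and synapses, were higher. Celsr3 was at 31.6, 36.4 and 34.7 CPM in neurons and 1.87, 1.44 and 1.32 CPM in radial glia. Of 36 clustered protocadherins, 1 passed, listed as Pcdha4, at 83.6, 63.5 and 82.2 CPM in neurons and 8.51, 11.4 and 10.4 CPM in radial glia. Alpha protocadherins share their last exons, so 3′ counts cannot assign these UMIs to 1 isoform.

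Of 9 regulators, 5 passed, with 2 higher and 1 lower in each library. Scrt2 and Zeb2, transcriptional repressors known from newborn neurons, were higher, Scrt2 at 60.9, 103.9 and 96.0 CPM against 4.60, 0.884 and 1.32 CPM in radial glia. Zeb1, a repressor of Cdh1 in epithelia and of neuronal differentiation in progenitors, was lower, at 11.01, 23.4 and 17.9 CPM in neurons against 164.6, 74.6 and 164.4 CPM in radial glia. Cdh1 itself was near 0 in both classes.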

How the data were processed

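Deposited matrices hold UMI counts per gene and barcode, which the authors made with Cell Ranger 6.0.1 on mRatBN7.2, per the submitters' processing notes. The counts are not normalized, and the files name genes by symbol. The 35 members and the partner lists were chosen with earlier results of these data known. Barcodes with at least 1000 genes and at most 10% mitochondrial UMIs (13 genes) were kept: 4444, 5193 and 5690 in label order. Scrublet scores (Scanpy 1.11.5) removed the top 0.8% of cells per 1000 cells, 158, 216 and 259 in all. Scrublet's own threshold marked 2.54%, 0.0385% and 2.65% and had not worked in the library labelled E16.

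Clusters came from 2000 variable genes without the members, 30 components, 15 neighbours and Leiden resolution 1 (leidenalg 0.10.2), with no integration. They were named from 145 marker symbols of 18 classes, by the number of markers among the 10 leading genes of at least 50 CPM and then by mean fold, and the naming rule was settled after the clusters had been seen. A name needed 3 markers raised 1.2-fold and found in 20% of cells. The largest neuron cluster, of 992 cells, is not reported here on its own. All members were accounted for. Those at 10 CPM in a class of at least 20 cells were described, and partner genes were named by the largest ratios, besides Ctnnb1. UMIs were summed per class and library, ratios had 1 CPM added, and intervals cover counting error only, since the UMIs say nothing of variation between embryos. Shares and member numbers per cell used cells thinned to 2000 UMIs, with Clopper-Pearson intervals. No test was made with 1 library per label. The ratio step was checked on simulated counts. The scripts ran on Python 3.11.15 with scipy 1.17.1, numpy 2.4.6, matplotlib 3.10.9 and pandas 2.3.3.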

Additional observations from a re-analysis of the deposited data

Results flagged for a closer look

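Pcdh18 was marked because its neuron over radial glia ratio, past 2-fold in each library, had opposite signs. On the log2 scale it was 1.59 in the library labelled E14, -1.27 in that labelled E16 and 1.27 in that labelled E18. The difference between libraries was not tested, since each label has 1 library.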

How the results depend on the processing

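Altogether 10 alternatives were run for 35 counts of members and 74 ratios that reached 2-fold. None of the 740 alternative values of those ratios changed sign, and 31 moved by over 1.5-fold, most of them with 5 CPM added or with doublets kept. Of 348 alternative counts, 55 differed from the reported count by over 1.5 times. The counts for intermediate progenitors and over all 3 libraries were put to these alternatives after seeing the data.

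With doublets kept, radial glia labelled E16 had 1 member higher than those labelled E14 (reported 2), and those labelled E18 had 1 lower (2). In cells of at least 2000 genes, 2 members were lower in neurons than in radial glia in the library labelled E14 (1), and 1 in every library (0). With the mean of per-cell CPM those counts were also 2 and 1, radial glia labelled E16 and E18 each had 1 member lower than those labelled E14 (2 and 2), neurons labelled E16 had 4 higher than those labelled E14 (2), and neurons labelled E18 had 2 higher (1) and 2 lower (4). With a minimum of 5 CPM, radial glia labelled E18 had 1 higher than those labelled E16 (0). With 5 CPM added, 1 member was lower in neurons than in radial glia labelled E18 (2), radial glia labelled E16 had 1 higher than those labelled E14 (2), and neurons labelled E18 had 2 lower than those labelled E14 (4). With no minimum, neurons had 3 lower than radial glia labelled E14 (1), 10 higher labelled E16 (6) and 14 higher labelled E18 (8). Radial glia then had 7 lower in E16 over E14 (2), 2 higher and 6 lower in E18 over E14 (1 and 2) and 3 higher and 1 lower in E18 over E16 (0 and 0). Neurons had 4 higher in E16 over E14 (2) and 5 higher in E18 over E16 (3).

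For intermediate progenitors over radial glia, the count higher labelled E14 was 1 (2) with doublets kept, in cells of at least 2000 genes and with 5 CPM added, and so was the count higher in every library (2). The count lower labelled E14 was 2 (1) at Leiden resolution 2, in cells of at least 2000 genes and with the mean of per-cell CPM, and 5 with no minimum. That lower labelled E16 was 1 (2) with doublets kept, at Leiden resolution 0.5, in cells of at least 2000 genes and with 5 CPM added, and that lower labelled E18 was 3 (1) with no minimum. Between libraries, the count higher in E18 over E16 was 0 (2) with doublets kept, in cells of at least 2000 genes, with median-of-ratios scaling and with 5 CPM added, and 4 with no minimum. That lower in E18 over E16 was 2 (1) with the mean of per-cell CPM and with no minimum. The count higher in E18 over E14 was 1 (2) with the mean of per-cell CPM and with 5 CPM added. That lower in E18 over E14 was 0 (1) with 5 CPM added, 2 with a minimum of 5 CPM and 3 with no minimum. In E16 over E14, 2 were lower (1) with a minimum of 5 CPM, and 6 higher (3) and 6 lower with no minimum. More genes enter with no minimum, and the cause of the other changes was not tested.

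With each library left out in turn, chosen after seeing the data, the count of members higher in neurons in every library ranged from 5 to 7 and that lower from 0 to 1. The 7 came without the library labelled E16, where Cdh13 and Pcdh18 joined. For intermediate progenitors the counts were 2 higher and 1 lower each time. No paired analysis was possible because each label has 1 library. Depth limits members of a few UMIs and classes of under 100 cells, such as endothelial and hem-like cells.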

Other observations

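The unnamed cluster, led by Fgf17, Fgf8 and Zic4, held 404 cells labelled E16 and 30 labelled E18. Pcdh19 was at 123.3 CPM (113.6 to 133.6) and 108.2 CPM (77.0 to 148.0) there. Pcdh7 was at 52.7 CPM (46.4 to 59.6) and 116.5 CPM (84.0 to 157.5), and Cdh11 at 27.0 and 36.1 CPM. In radial glia labelled E16, by comparison, Pcdh7 was at 17.9 CPM and Cdh11 at 7.34 CPM.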
